A study of Sus scrofa domesticus and Sus scrofa with 18 samples.

Results

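The genes described here had their lowest level at A180d among the 5 stages of spleen development in the Rongchang pig, a Chinese domestic breed. A gene was taken when its A180d mean of log2(FPKM+1) lay at least 0.75 below each of the means of E55d, B0d, W30d and A2Y, and when its mean over all 18 libraries was below 10. FPKM is the number of fragments per kb of transcript scaled to the mapped reads of the library, so that it allows for transcript length and library size. It does not allow for the part of the total that the most abundant gene takes. This part was 16.0, 32.2 and 42.7% in the A180d libraries and 36.9 to 53.6% in the libraries of the other groups. The rule found 118 of the 12913 protein-coding genes in the table (0.914%), of which 54 have a gene symbol and 64 have only an identifier. The members were chosen by the A180d, E55d, B0d, W30d and A2Y values themselves, so that the low level at A180d is given as a description without a test. All values below are on the log2(FPKM+1) scale unless another scale is named. A difference on this scale understates the fold change of FPKM for genes of low level.

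Total RNA was taken from whole spleens of female pigs, with 3 animals and 1 strand-specific library each in 6 groups. E55d is the fetus 55 days before birth, B0d the newborn, W30d the piglet labelled as weaned for 30 days, A180d the pig of 180 days and A2Y the pig of 2 years, all of the Rongchang breed and without any treatment. WB is the Wild Boar of 2 years, which was collected in Ya'an, so that breed, origin and living conditions cannot be told apart in a comparison of WB with A2Y. The stages have no repeat in another cohort, so that age and the day or place of sampling cannot be told apart either.

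The spleen filters blood through macrophages that take up aged red cells, and it holds B and T lymphocytes that respond to antigens in the blood. Many of the genes with a known role serve functions shared by all cells. Complex I of the respiratory chain (NADH dehydrogenase) passes electrons from NADH to ubiquinone in mitochondria, and some of its core subunits, named ND, are encoded in the mitochondrial genome and copied there by a separate RNA polymerase. Nuclear messenger RNAs are spliced by complexes helped by proteins rich in serine and arginine, and RNA-binding proteins then set their export, stability and translation. In whole tissue, fewer cells of a type and less RNA per cell cannot be told apart.

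Markers of B cells, T cells and macrophages were present in every library, as the label of spleen requires. The FPKM summed over 6 B cell markers was 176 to 195 at A180d, and over 7 macrophage markers it was 2043 to 2291. None of the 118 genes was on any of 24 lists of cell type markers and pathways, of which 194 of 337 symbols were measured. The members are only 0.914% of all genes, so that nothing is read from their absence among these 194. Only 14 of these 194 genes (7.22%) had their lowest stage mean at A180d, against 3021 of all 12913 genes (23.4%). No symbol of the adipocyte and exocrine pancreas lists was matched in the table, and these cell types were not checked. W30d replicate 2 stood apart from both other W30d libraries. In 450 of all genes (3.48%) and in 9 of the 118 it lay below both by more than 1, among them LARP7, BLVRB, DNAJB4, DENND4A and CPEB4. How many reads stand behind a value is unknown, and no counting interval is given. The paper lists more sequence data for each A2Y library than for any library of another group. The A180d and WB libraries are among those with the least, as are single libraries of E55d and W30d. The part of this difference in the results was not tested.

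The level of the set was lowest at A180d and intermediate in WB, while the level of all genes did not move in this way. The mean over the 118 genes was 2.51 ± 0.065 at A180d and 2.93 ± 0.22 in WB (SD, n = 3 each). It was higher before A180d, with 3.90 ± 0.052 at E55d, 3.83 ± 0.12 in newborns and 3.78 ± 0.17 at W30d, and again after it, with 3.63 ± 0.19 at A2Y. The 6 libraries of A180d and WB spanned 2.46 to 3.16 and the other 12 libraries 3.44 to 3.96, without overlap. The median level of all genes was 2.37 at A180d and 2.26 to 2.48 in the other groups. The median gap between A180d and the lowest of the other stage means was 0.87, with a range of 0.75 to 1.73. In 105 of the 118 genes (89%), including all 54 with a symbol, the 3 A180d libraries lay below all 12 other domestic libraries. The same was true of 7.9% of all genes, but the rule used these values and nothing follows from the contrast.

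**Figure D1:**
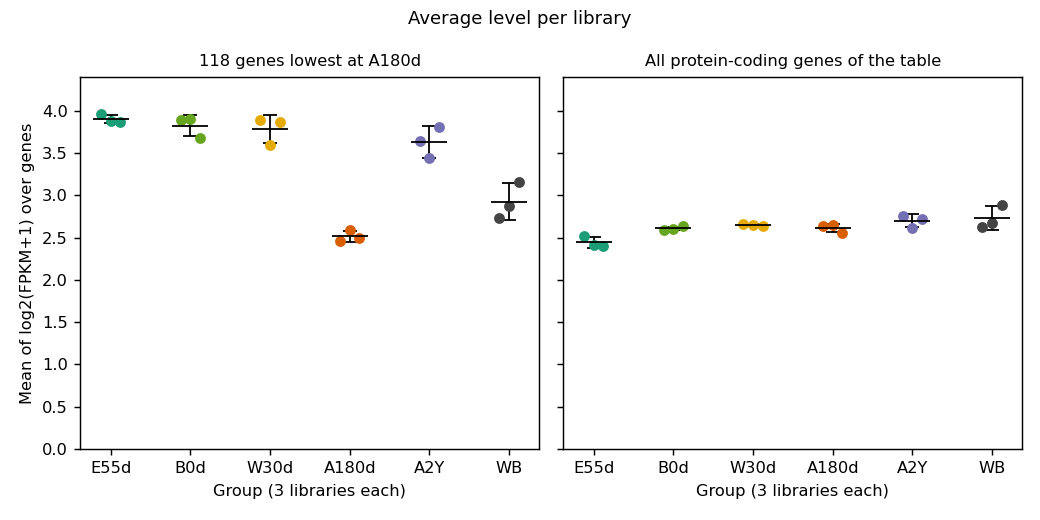
Mean of log2(FPKM+1) over the 118 genes lowest at A180d (left) and over all protein-coding genes (right), by group. Each point is 1 library, the long bar is the group mean and the error bar is the SD of 3 libraries. On the left the A180d libraries sit at the bottom, the WB libraries come next, and the other 12 libraries lie above both. On the right the A180d and WB libraries do not stand apart in this way, and the E55d libraries are the lowest, at 2.41 to 2.52.

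The stage of the highest level was not shared. It was E55d in 37 genes, B0d in 36, W30d in 24 and A2Y in 21. The lowest stage other than A180d was A2Y in 50 genes, E55d in 30, W30d in 27 and B0d in 11. By the same limits, 1233 genes were lowest at E55d, 20 at B0d, 14 at W30d and 55 at A2Y, and 100 genes were highest at A180d.

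The genes at the limit of 0.75 were close to each other. NKTR, with a gap of 0.7516, and ENSSSCG00000028932, with 0.7541, were just inside. BCLAF1, with 0.7492, and OTTSUSG00000002926, with 0.7491, were just outside. Another 2 genes had the required gap but a mean over all libraries above 10, namely ATP8 with 10.7 and ENSSSCG00000018700 with 16.6. All 118 genes passed the limit on low values (FPKM above 0.1 in at least 3 libraries), as did all 12913.

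All members with a symbol were sorted by what their products are known to do, after their values had been seen. The first group is complex I, with 5 of the 7 ND genes measured. These are ND2, ND3, ND4, ND5 and ND6, all core subunits encoded in the mitochondrial genome. ND2 (ENSSSCG00000018069) read 5.74, 5.87 and 5.51 at E55d, 5.10, 4.75 and 5.51 at B0d, 4.36, 4.64 and 5.03 at W30d, and 4.36, 5.05 and 5.41 at A2Y. At A180d it read 3.39, 3.38 and 3.46, and in WB 3.50, 3.87 and 4.13. The A180d libraries were thus the lowest of all, the WB libraries were next, and neither overlapped with any other group. ND2 was 3.09-fold higher in FPKM at A2Y than at A180d, computed from the group means.

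ND5 (ENSSSCG00000018091) read 7.73, 7.61 and 7.15 at E55d, 5.73, 5.56 and 6.24 at B0d, 5.19, 5.25 and 5.54 at W30d, and 5.03, 5.49 and 5.41 at A2Y. It then read 4.24, 4.11 and 4.16 at A180d and 4.06, 4.43 and 4.56 in WB. The level fell from the fetus to the newborn, and the WB and A180d libraries overlapped. ND4 (ENSSSCG00000018087) was 7.65, 7.64 and 7.19 at E55d, 5.78, 5.49 and 6.42 at B0d, 4.70, 5.14 and 4.95 at W30d, 4.67, 5.49 and 5.52 at A2Y, and 4.33, 4.78 and 4.53 in WB, while its A180d level was 3.95 ± 0.061 (SD, n = 3). It fell both from E55d to B0d and from B0d to W30d.

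ND6 and ND3 did not have the high fetal level of ND4 and ND5. ND6 (ENSSSCG00000018092), which lies on the other strand of the mitochondrial genome than the rest of the ND genes, read 6.26, 5.46 and 5.63 at E55d, 5.83, 6.01 and 6.21 at B0d, 6.03, 5.54 and 5.99 at W30d, and 5.59, 6.26 and 5.97 at A2Y. It read 4.32, 4.82 and 5.15 at A180d and 3.76, 5.37 and 4.57 in WB, where the spread was the widest of its groups (SD 0.80, n = 3). ND3 (ENSSSCG00000018084) was between 8.43 and 8.98 in all libraries of E55d, B0d and W30d. It read 7.44, 7.55 and 8.08 at A180d, 9.05, 9.25 and 9.53 at A2Y and 7.84, 8.10 and 8.92 in WB, so that A2Y was its highest stage.

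The remaining proteins encoded in the mitochondrial genome were looked at after these values had been seen. All 13 were measured, of which 5 are members and were chosen for a low A180d level. Of the 8 others, A180d was the lowest domestic stage in 7, against 23.4% of all genes. The exception was COX3, a subunit of cytochrome c oxidase, which was lowest at B0d. The gap was 0.52 for ND1, 0.39 for CYTB (complex III), 0.36 for ATP6 (ATP synthase), 0.26 for COX1, 0.25 for ND4L and 0.17 for COX2, all under the limit. ATP8, another subunit of ATP synthase, had a gap of 0.98 and was left out by its high mean alone. Its lowest stage thus followed from the gap limit. The 8 genes share a genome with the 5 members and cannot be taken as independent of them. The count of 7 is therefore a description. ATP8 and ATP6 overlap in the genome, as do ND4L and ND4, and mitochondrial genes have near copies in the nuclear genome, so that the division of reads between them is uncertain.

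**Figure D2:**
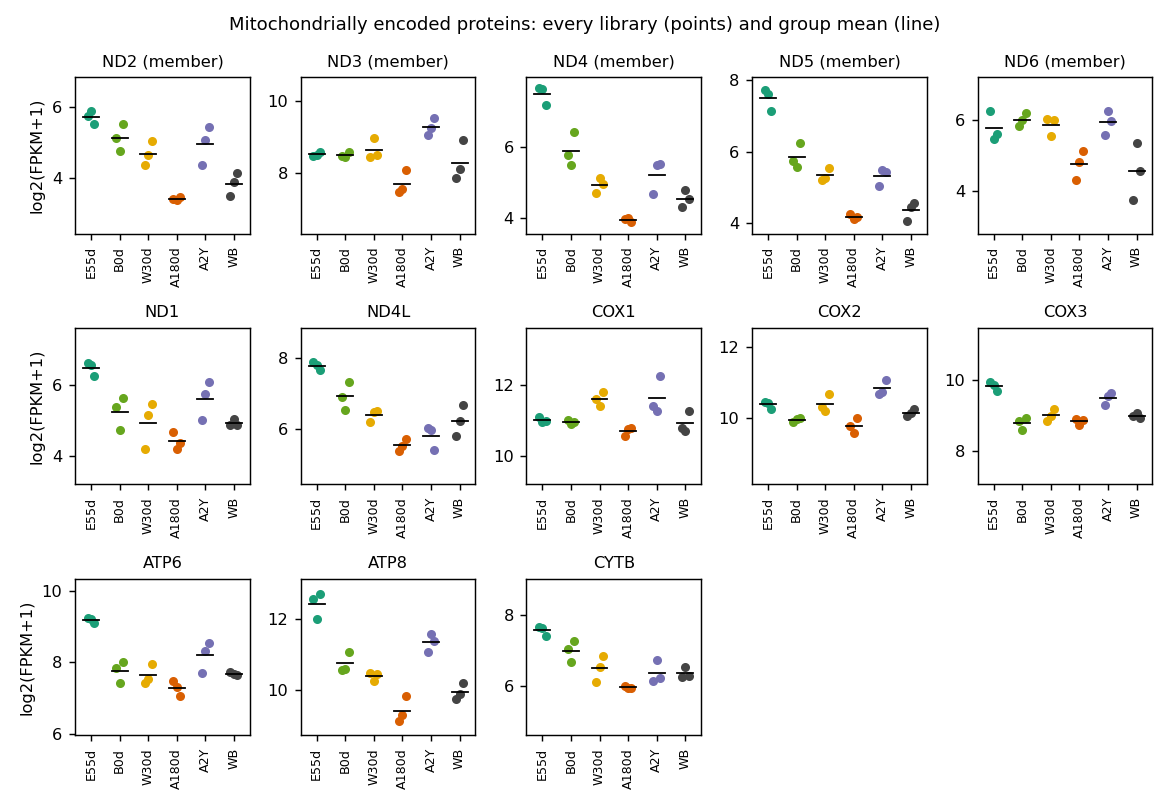
Level of the 13 mitochondrially encoded proteins as log2(FPKM+1), with 1 panel per gene and an axis of the same length in each. Points are libraries, 3 per group, and the line is the group mean. A180d has the lowest domestic mean in every panel except COX3. E55d has the highest mean in ND1, ND2, ND4, ND4L, ND5, COX3, ATP6, ATP8 and CYTB.

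The largest group was RNA processing and RNA binding, with 10 members. LARP7 (ENSSSCG00000009119), which binds the 7SK RNA that holds the elongation factor P-TEFb inactive, had the largest gap of all members with a symbol (1.36). LARP7 read 3.35, 3.30 and 2.96 at E55d, 2.72, 2.94 and 2.67 at B0d, 3.98, 2.30 and 3.45 at W30d, and 2.55, 2.46 and 2.84 at A2Y. It was 1.21, 1.28 and 1.28 at A180d and 1.37, 1.39 and 2.21 in WB. The A180d libraries lay within 0.07 of each other and the WB libraries were all above them.

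LUC7L3 (ENSSSCG00000017555), a splicing factor associated with the U1 snRNP, had a gap of only 0.76 but the largest drop from A2Y to WB among members with a symbol. It read 3.98, 4.03 and 3.85 at E55d, 4.95, 5.02 and 4.67 at B0d, 5.32, 5.00 and 5.25 at W30d, and 5.22, 5.03 and 5.63 at A2Y. It read 3.26, 3.36 and 2.96 at A180d and 3.19, 3.60 and 3.63 in WB. Its level thus rose after E55d, and A180d and WB overlapped below the fetal level.

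ZFC3H1 (ENSSSCG00000000509), part of the machinery that hands nuclear polyadenylated RNA to the exosome, was 2.90 to 3.64 in the 12 libraries of the other domestic stages. At A180d it was 1.94, 2.06 and 1.99, and in WB 2.01, 2.45 and 2.57. NSRP1 (ENSSSCG00000017795), a splicing regulator of nuclear speckles, was 1.76 to 2.63 in those 12 libraries, 0.91, 0.96 and 1.05 at A180d, and 0.86, 1.37 and 1.28 in WB. In both genes the WB libraries overlapped with A180d and with no other group. TIA1, which binds RNA in stress granules, was 3.34, 3.39 and 3.32 at A180d and 3.27, 3.32 and 3.47 in WB, against 4.15 to 4.78 elsewhere.

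HNRNPH3, SCAF11 and RBBP6, which act in splicing or in 3′ end formation, and ESF1, which acts in ribosomal RNA processing, had gaps of 0.87, 0.76, 0.93 and 0.88. CPEB4, which binds a polyadenylation element of messenger RNAs, was the exception in the group. Its A180d level was 2.84 ± 0.19 (SD, n = 3), it read 3.59, 3.93 and 4.09 in WB, and these WB values were within the range of the 12 other domestic libraries, 3.15 to 5.62.

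The group of chromatin and transcription had 7 members, namely CHD1 (a chromatin remodeller), SUPT20H (a subunit of the SAGA complex), BDP1 (a subunit of the RNA polymerase III factor TFIIIB), MIER1 (a corepressor), LCORL, ZNF146 and CCAR1 (a coactivator of transcription). Their gaps were 0.76 to 0.90. CCAR1 (ENSSSCG00000010243) read 3.49, 3.22 and 3.25 at E55d, 3.59, 3.58 and 3.49 at B0d, between 3.65 and 4.02 at W30d, 2.47, 2.41 and 2.52 at A180d, 3.77, 3.52 and 4.10 at A2Y, and 2.15, 2.79 and 2.69 in WB. The A180d libraries lay inside the range of the WB libraries, and every other library was higher.

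Of 5 members that act at the centrosome or cilium, AKAP9 (ENSSSCG00000015310), an anchoring protein of the centrosome and Golgi, had the largest gap (1.07). AKAP9 was 2.75 to 3.49 in the 12 other domestic libraries, 1.72, 1.86 and 1.86 at A180d, and 1.69, 2.19 and 2.31 in WB. CEP290, a protein of the ciliary transition zone, was 0.57, 0.60 and 0.63 at A180d and 0.57, 0.71 and 0.88 in WB, against 1.34 to 1.84 elsewhere. LRRCC1, CEP128 and PCM1 had gaps of 0.84, 0.76 and 0.87. PCM1, which organises centriolar satellites, was the member of this group whose WB level, 2.61 to 3.24, lay nearer to A2Y.

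The 4 members of DNA repair and meiosis divided by their level after birth. RIF1 and ETAA1, which act at stalled or broken replication forks, read 3.65 to 4.07 and 2.64 to 2.93 in the libraries of E55d, B0d and W30d, and neither was called from E55d to B0d or from B0d to W30d. SYCP2, a component of the synaptonemal complex, read 2.05, 2.01 and 1.84 at E55d, 0.90 to 1.38 in the libraries of B0d, W30d and A2Y, 0.38, 0.25 and 0.19 at A180d, and 0.55, 0.63 and 0.60 in WB. MEIOB, a meiotic single-strand DNA binding protein, was 2.78, 3.03 and 2.90 at E55d and 0.71, 0.49 and 0.62 at A180d. Both meiotic genes were highest in the fetus.

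The group of receptors and channels had 5 members. CALCRL (ENSSSCG00000016031), the receptor for adrenomedullin and CGRP, read 4.84, 4.96 and 4.78 at E55d, 4.99, 5.22 and 4.76 at B0d, 4.43, 4.11 and 3.88 at W30d, and 3.53, 3.98 and 4.27 at A2Y. It read 2.77, 3.11 and 3.15 at A180d and 2.85, 4.78 and 4.74 in WB. WB replicate 1 was thus among the A180d libraries, and both other WB libraries were above all A2Y libraries.

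LGR4 (ENSSSCG00000013335), a receptor for R-spondins, was 0.86, 0.95 and 0.71 at A180d, 1.38, 1.72 and 1.71 at A2Y and 1.45, 1.47 and 2.74 in WB. ADGRL2 (ENSSSCG00000003761), an adhesion G protein-coupled receptor, was 2.66, 2.31 and 2.18 at A180d, 2.95, 3.24 and 3.75 at A2Y and 3.06, 3.61 and 3.67 in WB. For both, the WB and A2Y libraries overlapped. LRP6, a Wnt co-receptor, and TRPC1, a cation channel, complete this group, with gaps of 0.80 and 0.79.

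CCDC88A (ENSSSCG00000008406), an actin-binding protein of cell migration also called girdin, had the largest gap among 5 members of cytoskeleton and signalling (1.15). CCDC88A was 2.48 to 3.44 in the 12 other domestic libraries, 1.50, 1.50 and 1.48 at A180d, and 1.85, 2.70 and 3.24 in WB. Its WB libraries spanned the interval from just above A180d to the upper part of the other stages. VCL (vinculin, of cell adhesions), ROCK2 and SLK (both kinases) and PLCB1 (a phospholipase C) had gaps of 0.77 to 0.97. The 4 members of membrane traffic and GPI anchors, FCHO2, GOLGA4, DENND4A and PGAP1, had gaps of 0.84 to 0.97.

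BLVRB (ENSSSCG00000021067), the biliverdin reductase B of haem breakdown, read 5.31, 5.07 and 5.31 at E55d, 5.79, 5.61 and 4.69 at B0d, 6.81, 3.71 and 6.56 at W30d, and 4.33, 4.05 and 5.41 at A2Y. It was 3.27, 3.57 and 3.35 at A180d and 4.48, 5.06 and 4.97 in WB. DNAJB4 (ENSSSCG00000003766), a co-chaperone of HSP70, read 4.34, 4.30 and 4.10 at E55d, 4.64, 4.65 and 4.07 at B0d, 5.76, 3.13 and 5.41 at W30d, 2.91, 3.11 and 2.74 at A180d, 3.82, 3.61 and 4.62 at A2Y, and 5.75, 4.26 and 4.07 in WB. In both genes W30d replicate 2 was close to the A180d libraries, and the WB libraries lay within the range of the other stages. MAT2A, which makes S-adenosylmethionine, had a gap of 0.78.

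ADAMTS6 (ENSSSCG00000016943), a secreted metalloprotease, was the only member of this group of 4 whose WB level was below that of A180d. ADAMTS6 read 2.05, 2.00 and 1.89 at E55d, 2.63, 2.92 and 2.05 at B0d, 2.37, 2.06 and 2.29 at W30d, 0.84, 0.98 and 0.88 at A180d, 1.92, 1.62 and 1.66 at A2Y, and 0.61, 0.54 and 0.48 in WB. For 5 other members, CCSER1, CCDC82, PAXBP1, MSS51 and NKTR, no role is given here. CCSER1 (ENSSSCG00000022986) was 0.79, 0.83 and 0.57 at A180d, 1.62 to 2.30 in the other domestic libraries and 1.09, 1.24 and 1.02 in WB.

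Among the 64 members without a symbol, the largest gaps were 1.73 (ENSSSCG00000028254) and 1.72 (ENSSSCG00000030057). The 13 members whose A180d libraries overlapped with other domestic libraries were all of this kind. ENSSSCG00000029773 varied from 0 to 13.4 over the libraries and within groups, for example 0.00, 9.35 and 0.77 at A180d and 6.84, 8.67 and 11.2 at E55d. Its place in the set therefore rests on group means of libraries that differ widely.

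The position of WB was next compared with that of A180d and A2Y. The WB mean lay nearer to A180d than to A2Y in 76 of the 118 genes (64.4%), against 51.6% of all genes and 36 of the 100 genes highest at A180d. It was below each of the means of E55d, B0d, W30d and A2Y in 100 genes (84.7%), against 18.6% of all genes. No test was made, since A180d was chosen to be low and A2Y to be higher. The WB and A180d libraries overlapped in 73 genes, the WB libraries were all above A180d in 40 and all below in 5. The median of WB minus A180d was 0.30 in the set and 0.09 over all genes.

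WB was lower than A2Y in more than every second gene of the set. By limma with Benjamini-Hochberg adjustment over all genes, 67 of the 118 (56.8%) were lower in WB and 0 were higher. Over all genes, 20.4% were called, with 9.57% lower and 10.8% higher in WB. At an unadjusted p under 0.05, 75 members (63.6%) were lower and 1 was higher, against 16.7% and 18.1% of all genes. The median difference of WB minus A2Y was −0.72 in the set and 0.01 over all genes. The A2Y values are among those that chose the genes, as they had to lie above A180d, and this choice favours a high A2Y level and a low p in this comparison. The counts and p-values are therefore given as a description and are no independent support for a lower level in WB. The WB libraries had no part in the limits between stages.

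The largest drop among members with a symbol from A2Y to WB was that of LUC7L3, with a difference of −1.82 (SE 0.18, limma adjusted p = 2.4e-05). ND6 followed with −1.37 (SE 0.33, adjusted p = 0.0095), then CCAR1 with −1.25 (SE 0.18, adjusted p = 0.00038), AKAP9 with −1.22 (SE 0.17, adjusted p = 0.00035) and ADAMTS6 with −1.19 (SE 0.17, adjusted p = 0.00044). In all 5 genes the 3 WB libraries lay below the 3 A2Y libraries. These 5 were picked for their fall, and the A2Y values had a part in choosing the members. Their p-values are therefore a description too. LARP7 was also called, with −0.96 (SE 0.31, adjusted p = 0.040), but lost the call without any 1 of the 3 A2Y libraries or without WB replicate 1 or 2 (adjusted p = 0.059 to 0.13). CCDC88A had a difference of only −0.05 (SE 0.27, adjusted p = 0.93).

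**Figure D3:**
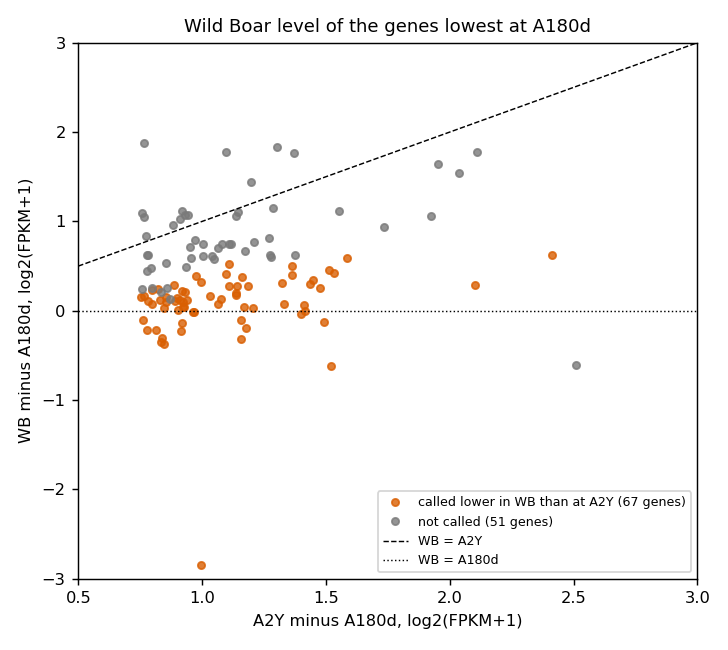
Difference of WB and A180d (vertical axis) against that of A2Y and A180d (horizontal axis) for the 118 genes, as differences of group means of log2(FPKM+1). Each point is 1 gene, coloured where limma called it lower in WB than at A2Y (67 genes). All points lie right of 0.75, which is the rule. Most lie below the dashed line, where WB is lower than A2Y, and many are near the dotted line, where WB equals A180d. The lowest point is ENSSSCG00000024918, at −2.85.

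By role, the counts and medians were as follows, again as a description. Over all genes, 9.57% were called lower in WB and 10.8% higher. In RNA processing and RNA binding 9 of 10 members were called lower in WB, with CPEB4 as the exception (0.12, SE 0.42, limma adjusted p = 0.88). In chromatin and transcription 6 of 7 were called lower, all but LCORL (−0.31, SE 0.15, adjusted p = 0.16). Among the ND genes 4 of 5 were called lower, and ND4 was not (−0.68, SE 0.25, adjusted p = 0.065). Of centrosome and cilium 3 of 5 were called lower, of DNA repair and meiosis 3 of 4, and all 5 of the genes with no role given. In membrane traffic and GPI anchors only GOLGA4 was called lower, with a median of −0.67 over its 4 members. Medians of WB minus A2Y in the 6 groups before it were −0.59 to −0.99.

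Of 5 receptors and channels 0 were called in either direction, with a median difference of 0.14 and a range from −0.39 for TRPC1 to 0.28 for LGR4. Of cytoskeleton and signalling only SLK was called lower (−0.60, SE 0.16, limma adjusted p = 0.016), with a group median of −0.18, and of enzymes and chaperones only ADAMTS6, with a group median of 0.04. The largest positive differences of WB minus A2Y among members with a symbol were those of DNAJB4 (0.68, SE 0.53, adjusted p = 0.39), LGR4 (0.28, SE 0.31, adjusted p = 0.55), BLVRB (0.24, SE 0.58, adjusted p = 0.81), CALCRL (0.19, SE 0.37, adjusted p = 0.75) and ADGRL2 (0.14, SE 0.23, adjusted p = 0.72), and none was called. Whether the groups differ from each other was not tested, since they were formed after the values were seen.

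**Figure D4:**
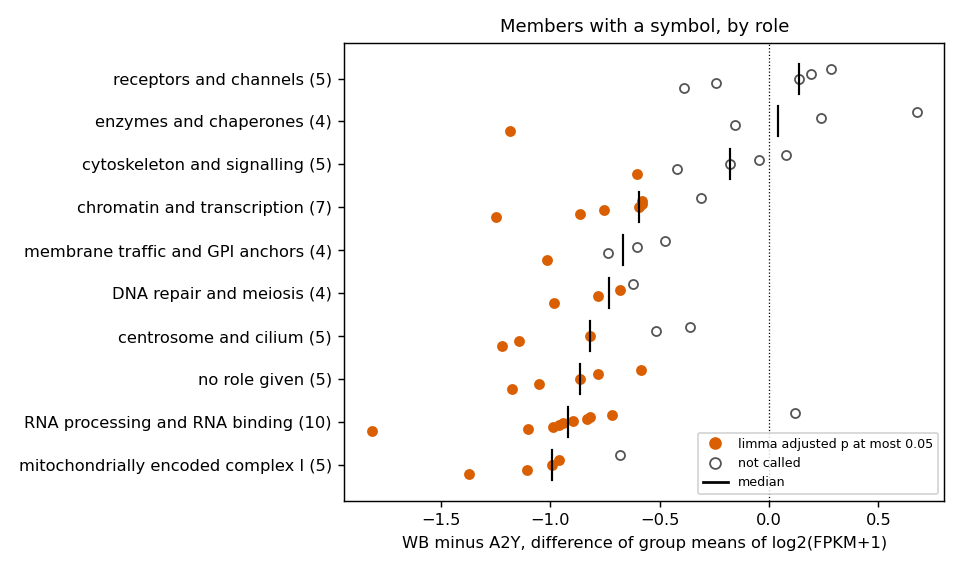
Difference of WB and A2Y for the 54 members with a symbol, as the difference of group means of log2(FPKM+1), by role. Each point is 1 gene, filled where the limma adjusted p is at most 0.05, and the bar is the median. Filled points are all left of 0 and are most frequent among RNA processing, chromatin, complex I and genes with no role given. Receptors and channels have no filled point.

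Of all 13 mitochondrially encoded proteins, 7 were called lower in WB than at A2Y and 0 higher by limma, against 9.57% and 10.8% of all genes. At an unadjusted p under 0.05, 11 were lower and 0 higher, against 16.7% and 18.1% of all genes. The 5 members and ATP8 had passed the gap limit with their A2Y values, so these counts are a description. Outside the set, the limma calls were ATP8 (−1.40, adjusted p = 0.0019), COX2 (−0.68, adjusted p = 0.024) and COX3 (−0.50, adjusted p = 0.046). CYTB had a difference of −0.01 (adjusted p = 0.99) and ND4L one of 0.44 (adjusted p = 0.20). The same numbers, 7 lower and 0 higher, were found after each library was scaled by its median ratio over genes, as was the lowest stage at A180d in 12 of 13.

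Other measurements moved with this comparison. The number of lncRNAs detected was 10929 to 11471 in the libraries of A180d and WB and 12133 to 13359 in the other 12, which is the same division of libraries as that of the mean of the set. The summed FPKM of B cell markers was 54.3 to 58.2 in WB and 151 to 204 at A2Y, and that of macrophage markers 3903 to 5001 in WB and 2068 to 2332 at A2Y. At A180d the same sums were within or near those of A2Y. Of the 6 B cell markers, 6 were called lower in WB than at A2Y and 0 higher. Of the 7 macrophage markers, only 2 were called higher and 0 lower. Of 16 immediate-early genes measured, 9 were called higher in WB than at A2Y and 0 lower, against 10.8% and 9.57% of all genes. Also called higher were 4 of 7 smooth muscle, 5 of 11 fibroblast and matrix and 3 of 5 endothelial markers. The same held for 4 of 6 glucocorticoid response genes, and in these 4 lists 0 were lower. Called lower were 2 of 8 T cell markers and 4 of 23 cell cycle genes, with 0 higher. The amount of sequence data also differed between these groups, as stated above. The part of these differences in the result was not tested.

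The rule set each of the 4 other domestic stages above A180d and put no limit on their order. Their values were nevertheless used by the rule, so that the counts of calls between them are given as a description beside those of all genes, and nothing is read from the difference of the shares. From E55d to B0d, 16 of the 118 genes were called by limma (13.6%), 7 higher and 9 lower at B0d, against 34.9% of all genes, 22.3% higher and 12.6% lower. After scaling by the median ratio, which moved the median change of all genes from 0.13 to 0.01, the numbers were 3 higher and 17 lower. ND5 fell by 1.66 (SE 0.21, adjusted p = 1.9e-05), ND4 fell by 1.60 (SE 0.25, adjusted p = 0.00016) and SYCP2 fell by 0.87 (SE 0.13, adjusted p = 8.3e-05). MEIOB fell by 0.95 (adjusted p = 0.0087), and SLK fell by 0.59 (adjusted p = 0.0099).

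The members with a symbol that rose from E55d to B0d were LUC7L3 (0.92, SE 0.18, limma adjusted p = 0.00097), PAXBP1 (0.64, adjusted p = 0.0029), ADAMTS6 (0.56, adjusted p = 0.021) and GOLGA4 (0.52, adjusted p = 0.047). ND2, which read lower at B0d on average, was not called (−0.59, SE 0.26, adjusted p = 0.086). Without E55d library s1 only 9 genes of the set were called, and without s6 10 were called.

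From B0d to W30d, 7 of the 118 genes were called by limma (5.93%), all lower at W30d and 0 higher, against 15.6% of all genes, 7.61% lower and 8.01% higher. At an unadjusted p under 0.05, 19 (16.1%) were lower and 2 (1.69%) higher, against 14.4% and 16.1% of all genes. Of the 5 receptors and channels 3 fell, namely ADGRL2 by 0.93 (SE 0.23, adjusted p = 0.012), TRPC1 by 0.79 (SE 0.23, adjusted p = 0.026) and LRP6 by 0.63 (SE 0.14, adjusted p = 0.0072). ND4 fell by 0.97 (SE 0.25, adjusted p = 0.016), and the other 3 genes have no symbol. A model of only these 2 groups called 0 of the 118, and 3.23% of all genes, so that none of these calls held in it. The count was 4 without W30d replicate 1 and 13, of which 6 were higher, without W30d replicate 2.

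Between W30d and A2Y, the stages on each side of A180d, 3 of the 118 genes were called by limma (2.54%), against 14.2% of all genes, 8.16% higher and 6.07% lower at A2Y. MIER1 was lower at A2Y, with a difference of −0.71 (SE 0.20, adjusted p = 0.029), as was TIA1 with −0.40 (SE 0.13, adjusted p = 0.043), while ENSSSCG00000027069 was higher by 0.56 (SE 0.18, adjusted p = 0.044). A model of only these 2 groups called 1 of the 118. Without W30d replicate 2, the library that stood apart, 20 genes were called, 18 of them lower at A2Y, while 23.8% of all genes were called. Without W30d replicate 1, W30d replicate 3 or A2Y replicate 3 none was called, and without A2Y replicate 1 or 2 there was 1. The number of genes of the set that differ between W30d and A2Y is thus not settled by these libraries. The median change from W30d to A2Y was −0.09 in the set and 0.10 over all genes.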

How the data were processed

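Strand-specific paired-end RNA libraries of 18 pig spleens, 3 per group, were used. The authors mapped reads with TopHat to the pig genome (Sscrofa10.2 per the submitters' processing notes) with replaced sex chromosomes, quantified genes as FPKM with StringTie 1.3.3, used Cufflinks 2.2.1 tools to filter lncRNAs, and deposited log2 values, log2(FPKM+1). These were used as deposited, although the design of the tests also allowed for linear FPKM. An empty cell of the lncRNA table was taken as FPKM 0. E55d columns carry no replicate number that matches the labels. Symbols were matched for 8215 of 12913 identifiers. No positions or sequences are given, as the reference table is of another assembly.

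Genes with FPKM above 0.1 in at least 3 libraries were fitted with limma 3.58.1 (R 4.3.3) in 1 model of 6 groups, with a trend in eBayes and Benjamini-Hochberg adjustment at 0.05 over all 12913 genes. Means, SDs and counts were computed with Python 3.11.15 and pandas 2.3.3. The members and lists were chosen with earlier results of these data known. Named with statistics were the 12 members with a symbol with the largest gap, 5 with the largest rise and 5 with the largest fall from A2Y to WB, and the genes at the limit. Other names were chosen after their values were seen. On simulated data of A2Y against WB (12913 genes), limma recovered 71% of changes of 1 and 97% of changes of 2 on the log2 scale, and 5.08% of its calls were false. The simulation used 1 SD per gene in all groups and changed genes picked at random. Its share of false calls therefore does not carry over to the members. No pair of libraries was identical. Alternatives were other gaps, pseudocounts, filters, scaling, models and leaving out each library.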

Additional observations from a re-analysis of the deposited data

How the results depend on the processing

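The number of genes lowest at A180d was 420 with a gap of 0.5, 27 with a gap of 1 and 369 with a pseudocount of 0.1, and for lncRNAs it was 818 with a gap of 0.5 and 44 with a gap of 1. It was 103, 88 of them shared with the 118, after scaling by the median ratio, and 105 to 149 when 1 library was left out. WB lay nearer to A180d in 69 to 90 of the 118 without 1 library, in 79 after scaling and in 74 with a pseudocount of 0.1. Without 1 library, calls in the set numbered 9 to 16 from E55d to B0d, 4 to 13 from B0d to W30d, 0 to 20 from W30d to A2Y and 53 to 70 from A2Y to WB. A model of only the 2 compared groups called 0 from B0d to W30d, where 3.23% of all genes were called, and 1 from W30d to A2Y. From W30d to A2Y, 10 were called after scaling, 1 of them higher and 9 lower at A2Y. The model with only A2Y and WB called 51. The cause of these changes was not tested.

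With the replicate number as a block, 0 genes were called from W30d to A2Y, 6 from B0d to W30d and 60 from A2Y to WB, and LARP7 had an adjusted p of 0.065. Libraries that share a number had correlations of −0.30 to 0.14 over 30 pairs, with 5 above 0.1. No correlations of libraries with unlike numbers are given beside them, so whether the number marks a pairing or batch was not tested. No paired analysis was possible because the E55d columns carry no matching number, for E55d against B0d.

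Of named genes from A2Y to WB, 8 values changed sign without 1 library, all of differences that were not called. These were BLVRB at −0.036 without A2Y replicate 2, CCDC88A at 0.10 without A2Y replicate 3 and 0.33 without WB replicate 1, LGR4 at −0.15 without WB replicate 3, ADGRL2 at −0.047 without A2Y replicate 1, and CALCRL at −0.0065 without A2Y replicate 1, −0.14 without WB replicate 2 and −0.12 without WB replicate 3. Their ranges without 1 library were −0.036 to 0.65 for BLVRB, −0.37 to 0.33 for CCDC88A, −0.15 to 0.50 for LGR4, −0.047 to 0.35 for ADGRL2 and −0.14 to 0.83 for CALCRL. CALCRL was called higher in WB without WB replicate 1 (0.83, limma adjusted p = 0.018), and ND4 lower without A2Y replicate 1 (−0.96, adjusted p = 0.019). Depth limits the lowest genes, whose reads are unknown.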

Other observations

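The same rule was applied to the lncRNA table, with an empty cell as FPKM 0. It found 160 of 15040 lncRNAs (1.06%), whereas 18 were highest at A180d by the same limits. The median level of the 160 was 0.62 at A180d and 0.74 in WB, and it was 2.02 at E55d, 2.13 in newborns, 1.74 at W30d and 1.73 at A2Y. The WB mean lay nearer to A180d than to A2Y in 151 of the 160 (94.4%), against 72.6% of all lncRNAs. The rule used the A180d and A2Y values, so that this count is a description. The A180d and WB libraries also had fewer lncRNAs detected, 10929 to 11471 against 12133 to 13359 in the other 12. The part of this in the count was not tested. By the same limits, 114 lncRNAs were lowest at E55d, 2 at B0d, 3 at W30d and 9 at A2Y.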
